A study of Mus musculus with 12 samples.

Results

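The EGF receptor, its partner ERBB2 and the ligands of the EGF receptor were followed in the ears of wild-type mice. The 8 genes, Egfr, Erbb2, Hbegf, Areg, Ereg, Epgn, Tgfa and Btc, were taken by gene symbol from a table of 56691 genes. Each symbol had 1 row, and all 8 passed the filter used for testing, which asked for 4 or more libraries at an FPKM of 1 or above and left 15403 genes. Areg passed through the IsoL and Model ears, where all 4 libraries of each group reached that level, against 1 of 4 in the Blank ears, so that it was bound to differ. The other 7 reached it in all 12 libraries.

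RNA from the ear was sequenced in 4 libraries for each of 3 groups. The IsoL ears had received isoliensinine, a plant alkaloid. The Model ears had received MC903 (calcipotriol), an analogue of vitamin D used on mouse skin to model atopic dermatitis, and the Blank ears no treatment. The genotype is WT in all 3 groups. Strain, age, doses and times of sampling are not in the labels, nor is it said if MC903 was also put on the IsoL ears. No label ties a library to 1 animal, so that the p-values reflect a spread between libraries that may be technical.

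The EGF receptor is a receptor tyrosine kinase of epithelial cells. Its ligands are made as precursors in the cell membrane, and metalloproteases of the ADAM family cut them free. Bound receptor pairs with a second receptor, often ERBB2, which has no ligand of its own, and signals through RAS and ERK as well as through PI3-kinase and AKT. In epidermis the pathway is known for driving keratinocyte growth and migration during wound repair, and keratinocytes are a known source of amphiregulin, epigen, epiregulin, HB-EGF and TGF-alpha.

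Levels are given as FPKM, fragments scaled to exonic length and library total, divided by the TMM factor of the library, so that they can be set side by side between libraries and, being per length, between genes. Total counts ran from 13884927 to 18771831 per library. Differences are log2 fold changes ± SE from edgeR's quasi-likelihood test, with Benjamini-Hochberg adjustment over all 15403 genes, and a gene was called at an adjusted p under 0.05. Calls were common in these ears. In Model against Blank ears 70.1% of the genes tested were called, 35.3% higher and 34.9% lower. In IsoL against Model ears 49.3% were called, 24.1% higher and 25.2% lower, and in IsoL against Blank ears 70.5%, with 36.5% higher and 34.0% lower.

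The 8 genes did not move together. In Model against Blank ears 3 were higher, the ligands Epgn, Areg and Hbegf, and 4 were lower, the ligands Ereg and Btc and both receptors, while Tgfa did not pass the test. In IsoL against Model ears 6 were higher, Erbb2 and every ligand but Hbegf, and Hbegf alone was lower, while Egfr did not pass. In IsoL against Blank ears 4 were higher, Epgn, Areg, Hbegf and Tgfa, and 4 were lower, Ereg, Btc, Erbb2 and Egfr. The shares called, 7 of 8, 7 of 8 and 8 of 8, stand against the backgrounds of 70.1%, 49.3% and 70.5%. Areg, whose difference from Blank was fixed by the filter, is among those called in both comparisons with Blank ears. The median log2 difference of the 8 genes was -0.06, 0.55 and 0.08 in these comparisons, against -0.01, 0.01 and 0.02 over all genes tested.

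Epgn, Areg, Ereg and Btc are neighbours. In the deposited table, whose genome build no label or header names, they lie on chromosome 5 within 375.5 kb, Epgn at 91175323 to 91183074 on the plus strand, Ereg at 91222481 to 91241505 on the plus strand, Areg at 91287458 to 91296291 on the plus strand and Btc at 91505120 to 91550853 on the minus strand. The upstream sequences of Epgn, Areg and Btc are shown because Epgn and Areg rose in Model against Blank ears and Btc fell. Each is the 250 bases before the annotated start of the gene in RefSeq on GRCm38.p6, whose coordinates are not those of the deposited table, read 5′ to 3′ on the strand of the gene. They span chr5:91027267-91027516 on the plus strand for Epgn, chr5:91139349-91139598 on the plus strand for Areg and chr5:91402995-91403244 on the minus strand for Btc. Capitals mark matches to the motifs named below.
Epgn: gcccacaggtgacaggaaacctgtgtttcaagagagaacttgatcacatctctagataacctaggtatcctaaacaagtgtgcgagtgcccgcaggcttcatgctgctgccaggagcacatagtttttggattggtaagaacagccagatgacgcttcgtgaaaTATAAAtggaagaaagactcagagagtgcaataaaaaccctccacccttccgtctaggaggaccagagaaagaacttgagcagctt
Areg: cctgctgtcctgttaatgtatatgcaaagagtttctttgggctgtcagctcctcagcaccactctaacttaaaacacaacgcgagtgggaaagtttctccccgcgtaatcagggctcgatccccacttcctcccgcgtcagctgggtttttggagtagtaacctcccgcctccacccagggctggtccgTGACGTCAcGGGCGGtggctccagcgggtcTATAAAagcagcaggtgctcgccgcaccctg
Btc: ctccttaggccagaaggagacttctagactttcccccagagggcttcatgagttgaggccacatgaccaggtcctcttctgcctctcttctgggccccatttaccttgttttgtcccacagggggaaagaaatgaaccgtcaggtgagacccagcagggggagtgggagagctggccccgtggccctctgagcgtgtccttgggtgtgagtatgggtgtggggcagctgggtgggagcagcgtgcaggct
The windows were searched on both strands for the AP-1 site, spelled TGANTCA, and for the cAMP response element, spelled TGACGTCA. The vitamin D receptor repeat was searched as NGNTCA found again in the same direction after 3 bases. The GC box was read as GGGCGG, and the TATA box as TATAAA. The Areg window held the cAMP response element at -61 to -54, a GC box at -52 to -47 and a TATA box at -31 to -26, counted back from the annotated start, and these did not overlap. The Epgn window held a TATA box at -86 to -81, and the Btc window held none of the 5 motifs. These positions hold for the RefSeq start alone, and other annotated starts may differ. Bases just after that start lay in 2 of 2 annotated transcripts of Epgn, 1 of 1 of Areg and 1 of 4 of Btc. RefSeq windows were also found for Tgfa, with 2 GC boxes, Egfr, with 1, and Erbb2, with none, which makes 6 of the 8 genes, all but Ereg and Hbegf. AP-1 and vitamin D receptor motifs were in none of the 6. Of 32817 promoter windows of 250 bases, 1.55% held the cAMP response element, 12.4% a TATA box, 32.7% a GC box, 6.75% the AP-1 motif and 0.545% the vitamin D receptor repeat. GC content was 46.8% in the Epgn window, 57.2% in Areg and 59.6% in Btc. A match describes the letters and is not a measured site.

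Egfr (ENSMUSG00000020122), the receptor itself, on chromosome 11 at 16702203 to 16868158 of the table's build, varied little. Its level was 9.38, 9.0, 8.37 and 9.55 FPKM in the IsoL ears, 9.69, 9.28, 9.90 and 9.53 in the Model ears and 11.2, 11, 10.7 and 10.9 in the Blank ears. Every treated library lay below every Blank library, and the IsoL and Model libraries overlapped. Egfr fell by 0.19 ± 0.05 on the log2 scale in Model against Blank ears and by 0.27 ± 0.05 in IsoL against Blank ears (adjusted p 0.00119 and 2.82e-05, edgeR's quasi-likelihood test). In IsoL against Model ears its log2 difference was -0.08 with a 95% interval of -0.18 to 0.02, at an adjusted p of 0.178 by the same test, and it was called lower, at -0.13, when library totals alone were used for scaling.

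Erbb2 (ENSMUSG00000062312), the coreceptor without a ligand, on chromosome 11 at 98303296 to 98328542 of the table's build, ran in 3 separate bands. It stood at 13.7, 13.3, 13.0 and 11.9 FPKM in the IsoL ears, 9.23, 9.70, 8.99 and 7.97 in the Model ears and 17.9, 17.4, 17.7 and 19.3 in the Blank ears. The Model libraries were the lowest and the Blank libraries the highest, with no overlap. Model ears held 2.01-fold less Erbb2 than Blank ears (log2 -1.01 ± 0.06, adjusted p 1.45e-12) and IsoL ears 1.45-fold more than Model ears (log2 0.54 ± 0.06, adjusted p 1.86e-07), by edgeR's quasi-likelihood test. IsoL ears were 1.39-fold below Blank ears (log2 -0.47 ± 0.06, adjusted p 2.91e-07). Erbb2 overlaps Mien1 on the other strand, and the sources used here do not say whether the counting used strand. Per kilobase, Erbb2 was below Egfr in the Model ears on average, at 8.97 ± 0.73 against 9.60 ± 0.26 FPKM, and above it in the IsoL and Blank ears (SD, n = 4 libraries). In the Model ears the ranges of the 2 receptors overlapped.

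Epgn (ENSMUSG00000035020), which encodes epigen, a ligand of low affinity for the receptor, was close to the bottom of the ligands in the Blank ears and at the top in both treated groups. Its level was 78.4, 79.3, 66.5 and 79.2 FPKM in the IsoL ears, 38.5, 45.6, 37.4 and 45.4 in the Model ears and 1.58, 1.06, 1.13 and 1.18 in the Blank ears. The 3 groups did not overlap, and IsoL replicate 3 was lower than the other IsoL libraries. The Model ears held 33.5-fold more than the Blank ears (95% interval 28.4 to 39.5, log2 5.07 ± 0.11, adjusted p 2.66e-20) and the IsoL ears 1.82-fold more than the Model ears (log2 0.86 ± 0.07, adjusted p 9.25e-10), by edgeR's quasi-likelihood test. Against the Blank ears, the IsoL ears held 60.9-fold more (log2 5.93 ± 0.11). Larger rises were measured in 242 genes in Model against Blank ears and in 95 in IsoL against Blank ears.

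Areg (ENSMUSG00000029378), which encodes amphiregulin, an autocrine ligand of keratinocytes that is also made by immune cells in tissue repair, had the same order of groups. It was measured at 33.7, 35.4, 31.5 and 32.5 FPKM in the IsoL ears, 19.7, 22.4, 20.4 and 24.5 in the Model ears and 1.22, 0.372, 0.675 and 0.569 in the Blank ears. The groups did not overlap. The Blank values rest on 27, 8, 14 and 12 counts, against 613 to 716 in the IsoL libraries and 326 to 460 in the Model libraries. Areg was 30.3-fold higher in Model than in Blank ears (95% interval 24 to 38.1, log2 4.92 ± 0.16). In IsoL against Blank ears it was 46.3-fold higher (log2 5.53 ± 0.15). Both are given as sizes, because the filter fixed a difference from Blank. By edgeR's quasi-likelihood test it was 1.53-fold higher in IsoL than in Model ears (log2 0.61 ± 0.09, adjusted p 7.72e-06). That call was lost in limma on log2(FPKM + 0.1), at 0.56 and an adjusted p of 0.0600.

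Hbegf (ENSMUSG00000024486), which encodes heparin-binding EGF-like growth factor, a ligand known from wound edges and from macrophages, was the only ligand lower in IsoL than in Model ears. Its level was 9.87, 8.74, 8.31 and 9.48 FPKM in the IsoL ears, 15.4, 14.7, 14.5 and 14.5 in the Model ears and 2.73, 2.22, 2.43 and 2.66 in the Blank ears. The Model libraries were the highest and no 2 groups overlapped. Hbegf rose 5.88-fold in Model against Blank ears (log2 2.56 ± 0.07, adjusted p 1.48e-18) and was 1.62-fold lower in IsoL than in Model ears (log2 -0.70 ± 0.06, adjusted p 3.98e-09), by edgeR's quasi-likelihood test. Against the Blank ears it was 3.63-fold higher in the IsoL ears (log2 1.86 ± 0.07).

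Ereg (ENSMUSG00000029377), which encodes epiregulin, a ligand of both the EGF receptor and ERBB4, was lower than in the Blank ears in both treated groups, where its neighbours Epgn and Areg were higher. It was at 14.6, 11.6, 11.4 and 13.3 FPKM in the IsoL ears, 8.61, 8.21, 8.86 and 8.81 in the Model ears and 22.9, 23.2, 23.1 and 24.6 in the Blank ears. The Blank libraries were the highest and the Model libraries the lowest, with no overlap. Ereg was 2.72-fold lower in Model than in Blank ears (log2 -1.44 ± 0.07, adjusted p 1.19e-14), 1.48-fold higher in IsoL than in Model ears (log2 0.56 ± 0.07, adjusted p 4.08e-07) and 1.84-fold lower in IsoL than in Blank ears (log2 -0.88 ± 0.06), by edgeR's quasi-likelihood test.

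Btc (ENSMUSG00000082361), which encodes betacellulin, a ligand of the EGF receptor and ERBB4, had the lowest level of the ligands in the treated ears. It stood at 2.73, 2.09, 1.52 and 2.14 FPKM in the IsoL ears, 1.56, 1.28, 1.34 and 1.34 in the Model ears and 4.94, 4.57, 4.69 and 4.15 in the Blank ears. IsoL replicate 3 lay inside the Model range, and both treated groups lay below every Blank library. Btc was 3.33-fold lower in Model than in Blank ears (log2 -1.74 ± 0.13, adjusted p 4.94e-11) and 2.16-fold lower in IsoL than in Blank ears (log2 -1.11 ± 0.12, adjusted p 2.76e-08), by edgeR's quasi-likelihood test. It was 1.55-fold higher in IsoL than in Model ears (log2 0.63 ± 0.14, adjusted p 0.000663).

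Tgfa (ENSMUSG00000029999), which encodes TGF-alpha, an autocrine ligand of keratinocytes and hair follicles, changed least among the ligands. It lies on chromosome 6 at 86172205 to 86252701 of the table's build and was at 9.31, 8.70, 7.15 and 8.85 FPKM in the IsoL ears, 6.74, 6.39, 6.43 and 7.21 in the Model ears and 6.33, 6.26, 5.95 and 6.78 in the Blank ears. The IsoL libraries lay above every Blank library, IsoL replicate 3 lay inside the Model range, and the Model and Blank libraries overlapped. In Model against Blank ears its log2 difference was 0.08 with a 95% interval of -0.07 to 0.23 (adjusted p 0.338), and in IsoL against Model ears it rose 1.27-fold (log2 0.35 ± 0.07, adjusted p 0.000322), by edgeR's quasi-likelihood test. Against the Blank ears the IsoL ears were 1.34-fold higher (log2 0.43 ± 0.07, adjusted p 1.53e-05).

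**Figure D1:**
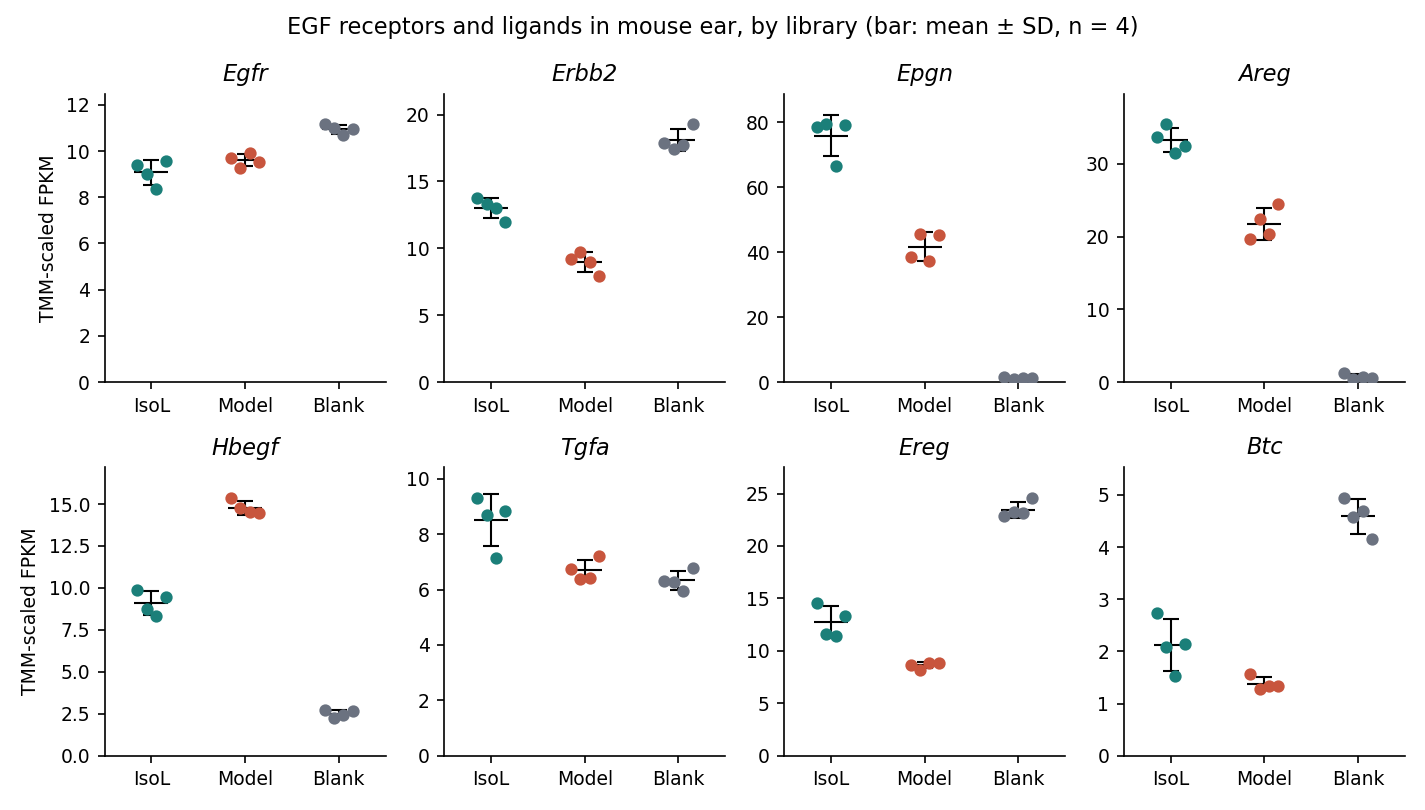
Level of each of the 8 genes, in TMM-scaled FPKM from 0 on a linear axis of its own, in the 4 IsoL, 4 Model and 4 Blank libraries; points are libraries and bars the mean ± SD. Epgn and Areg are near 0 in the Blank ears and highest in the IsoL ears, Hbegf is highest in the Model ears, and Ereg, Btc, Erbb2 and Egfr are highest in the Blank ears.

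The libraries of Model and Blank ears did not overlap for 7 of the 8 genes, against 67.4% of all genes tested. Those of IsoL and Model ears did not overlap for 5 of 8, against 42.7%, and those of IsoL and Blank ears for 8 of 8, against 63.7%. Both counts against Blank ears include Areg, which passed the filter through the treated ears. Every IsoL library lay between all Model and all Blank libraries for Erbb2, Ereg and Hbegf, and above all of them for Epgn and Areg. The IsoL mean of Btc lay between those of the Model and Blank ears, that of Egfr below both and that of Tgfa above both, with IsoL libraries that overlapped the Model range for these 3 genes.

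**Figure D2:**
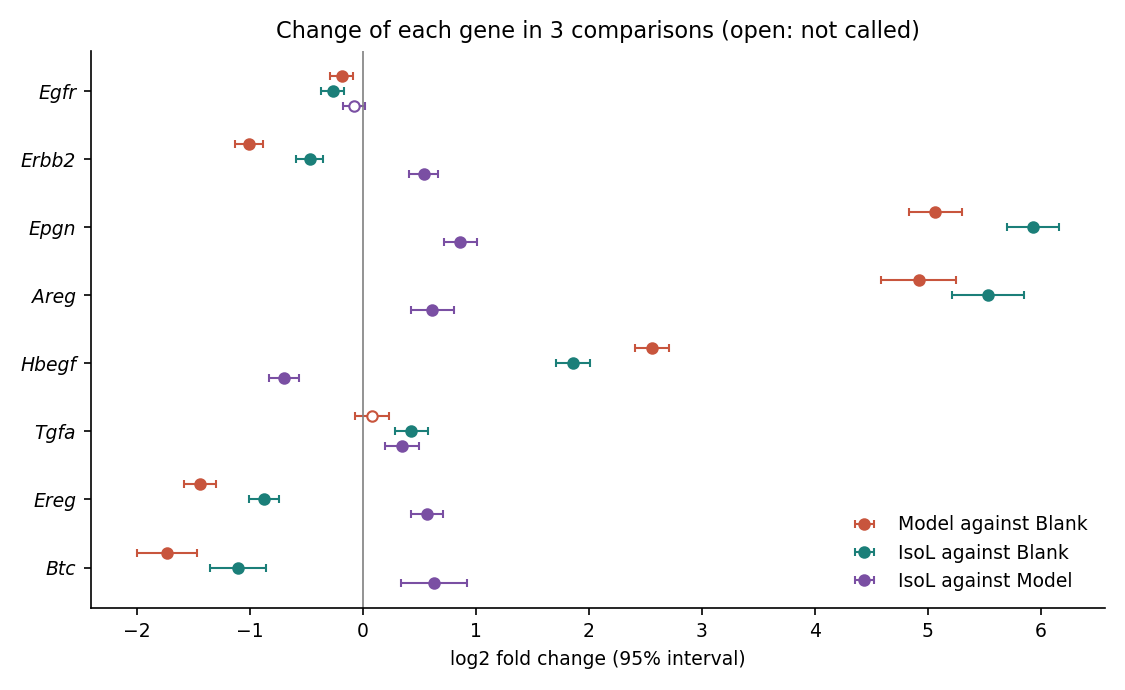
Log2 fold change of each gene in the 3 comparisons, with 95% intervals, from edgeR's fit over all 12 libraries; open points were not called and positive values are higher in the first group named. Epgn reaches 5.93 in IsoL against Blank ears, Btc -1.74 in Model against Blank ears, and the intervals of Tgfa in Model against Blank ears and of Egfr in IsoL against Model ears cross 0.

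The makeup of the ligand pool differed between the groups as a description of levels. The summed level of the 6 ligands was 142 ± 10.2 FPKM in the IsoL ears, 94.9 ± 6.20 in the Model ears and 38.8 ± 1.13 in the Blank ears (SD, n = 4 libraries each). Epgn made up 52.6% to 54.5% of that sum in the IsoL ears and 42.0% to 46.3% in the Model ears, against 2.81% to 3.97% in the Blank ears. Areg made up 22.3% to 24.9% in the IsoL ears and 21.7% to 24.1% in the Model ears, against 0.985% to 3.07% in the Blank ears. Ereg took the largest share in the Blank ears, 57.7% to 61.6%, against 7.95% to 9.81% in the IsoL ears and 8.32% to 9.96% in the Model ears. Hbegf held 5.99% to 6.64% in the IsoL ears, 14.3% to 17.0% in the Model ears and 5.88% to 6.88% in the Blank ears, and in the IsoL and Blank ears its shares overlapped although its level did not. The order of the ligands by level was Epgn, Areg, Ereg, Hbegf, Tgfa and Btc in the IsoL ears, with Hbegf and Tgfa overlapping. In the Model ears it was Epgn, Areg, Hbegf, Ereg, Tgfa and Btc, with no overlap of neighbours. In the Blank ears it was Ereg, Tgfa, Btc, Hbegf, Epgn and Areg, with Epgn and Areg overlapping.

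**Figure D3:**
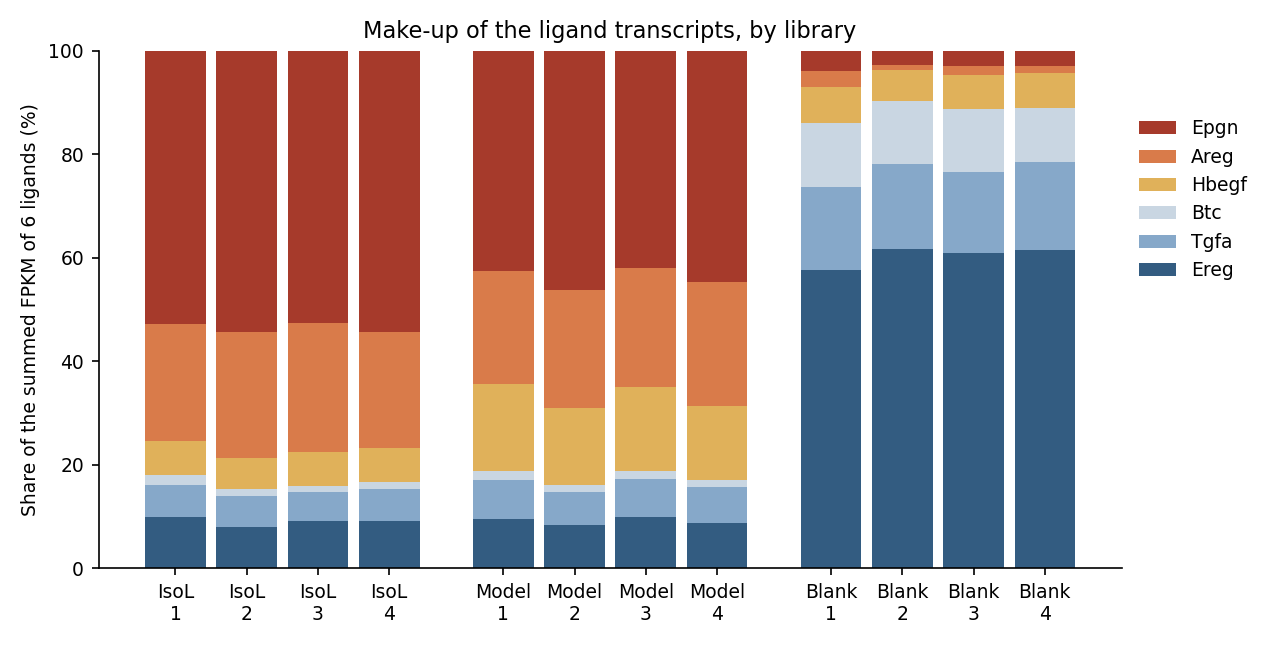
Share of each ligand in the summed scaled FPKM of the 6 ligands, in percent, as 1 stacked bar per library, with 4 libraries in each of the IsoL, Model and Blank groups. Epgn averages 53.6% of the IsoL bars and 43.9% of the Model bars, and Ereg averages 60.4% of the Blank bars.

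Between Epgn and Btc the table holds 7 genes, of which 5 passed the filter, the 4 ligands and Gm19610, a predicted gene without a described role. Gm19610 lies on the minus strand and overlaps the start of Ereg, so that reads of the pair may be shared if the counting ignored strand. Its level averaged 6.78 FPKM in the IsoL ears, 3.22 in the Model ears and 0.760 in the Blank ears. That order is the one of Epgn and Areg and not the one of Ereg. Gm19610 reached the filter's minimum in 4 IsoL, 4 Model and 2 Blank libraries, so that it too passed through the treated ears. Its log2 difference was 2.05 ± 0.49 in Model against Blank ears, given as a size for that reason. By edgeR's quasi-likelihood test it was higher in IsoL than in Model ears (log2 1.07 ± 0.34, adjusted p 0.0138). Epgn and Areg, which lie on either side of Ereg, rose in Model against Blank ears, and Ereg fell.

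**Figure D4:**
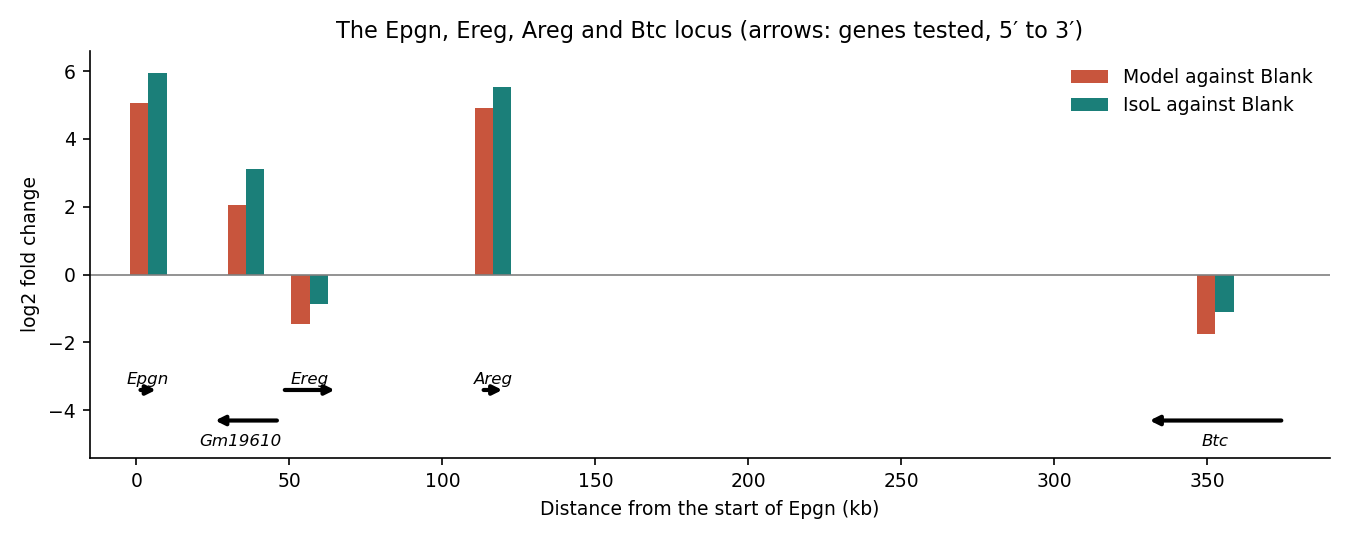
Log2 fold change of the 5 tested genes of the ligand cluster as bars, in Model against Blank and IsoL against Blank ears, against the distance in kb from the start of Epgn; arrows mark the genes, 5′ to 3′. In Model against Blank ears Epgn, Gm19610 and Areg are above 0, at 5.07, 2.05 and 4.92, and Ereg and Btc are below it, at -1.44 and -1.74.

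The other ERBB receptors and ligands were mostly low. Of 7, 3 passed the filter. Nrg1, which encodes neuregulin 1, a ligand of ERBB3 and ERBB4, averaged 1.13 FPKM in the IsoL ears, 1.76 in the Model ears and 0.0876 in the Blank ears. Like Areg, Nrg1 passed the filter through the IsoL and Model ears, with 4 libraries of each at the minimum and 0 in the Blank ears, so that a difference from Blank was fixed by the filter. Its log2 difference was 4.32 ± 0.11 in Model against Blank ears, given as a size, and it fell by 0.64 ± 0.08 in IsoL against Model ears (adjusted p 3.04e-07, edgeR's quasi-likelihood test). Erbb3, a receptor with a weak kinase that pairs with ERBB2, had the same order as Erbb2, with 22.8 FPKM in the IsoL ears, 15.5 in the Model ears and 25.2 in the Blank ears. It fell by 0.70 ± 0.06 in Model against Blank ears and rose by 0.56 ± 0.06 in IsoL against Model ears (adjusted p 2.23e-10 and 2.47e-08 by the same test). Its log2 difference of -0.14 ± 0.05 in IsoL against Blank ears passed at an adjusted p of 0.0253 but not without Blank replicate 1, 3 or 4 or IsoL replicate 3, where it ran from 0.0503 to 0.0730, nor without a filter on low values (0.0540) or with edgeR's own filter (0.0670). Nrg4, another ERBB4 ligand, fell by 0.91 ± 0.10 in Model against Blank ears and was at -0.18 ± 0.11 in IsoL against Model ears (adjusted p 3.51e-08 and 0.186). Under the filter, Egf, the ligand that names the family, had 309 counts over the 4 IsoL libraries, 195 over the Model libraries and 454 over the Blank libraries, and Erbb4 had 65, 98 and 255.

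Genes for the proteases that free the ligands, and for their cofactors and inhibitor, were mostly higher in Model than in Blank ears and mostly lower in IsoL than in Model ears. Of 10 shedding genes, 8, Adam12 among them, were higher and 2 lower in Model against Blank ears, beside 35.3% and 34.9% of all genes tested, with a median log2 difference of 0.65 beside -0.01. In IsoL against Model ears 7 were lower and 0 higher by edgeR's quasi-likelihood test, beside 25.2% and 24.1% of all genes tested, with 0 higher at an unadjusted p under 0.05 and 0 in DESeq2, and 2, Rhbdf1 and Frmd8, higher without IsoL replicate 4. Among the 7 lower, Adam10 and Timp3 were at -0.12 and -0.18 (adjusted p 0.0312 and 0.0276 by edgeR's quasi-likelihood test). Neither was called with upper-quartile factors (0.160 and 0.112), without Model replicate 2 or without IsoL replicate 1. Adam15, not among the 7, was called lower in some settings, as without IsoL replicate 1. Adam8, a protease of myeloid cells, averaged 14.0 FPKM in the IsoL ears, 68.8 in the Model ears and 4.90 in the Blank ears. It rose by 3.81 ± 0.09 in Model against Blank ears and fell by 2.30 ± 0.08 in IsoL against Model ears on the log2 scale (adjusted p 2.92e-20 and 2.20e-16 by the same test). Adam12, a protease that can cut HB-EGF, passed the filter through the IsoL and Model ears alone, with 0 Blank libraries at the minimum, which fixed its place among the higher genes. Its log2 differences were 2.59 ± 0.11 in Model against Blank ears and -0.74 ± 0.09 in IsoL against Model ears, and those of Adam9, a related protease, were 1.32 ± 0.05 and -0.70 ± 0.05. Timp3, an inhibitor of ADAM17, and Rhbdf1, which carries ADAM17 to the surface, were the 2 lower in Model against Blank ears, at -1.13 ± 0.06 and -1.06 ± 0.08. Adam17, the main protease for amphiregulin, TGF-alpha and HB-EGF, was chosen here after its values were seen, and averaged 17.2 FPKM in the IsoL ears, 22.3 in the Model ears and 17.0 in the Blank ears. Its log2 differences were 0.39 ± 0.05 in Model against Blank ears and -0.37 ± 0.05 in IsoL against Model ears (adjusted p 1.58e-07 and 5.59e-07). In IsoL against Blank ears 7 shedding genes were higher, 2 lower and Adam17 not called, at 0.01 ± 0.05 (adjusted p 0.815), where it was called lower, at -0.18, without scaling factors.

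Among negative regulators, the shares called in each direction are set beside those of all genes tested. Of 10 receptor inhibitors and ubiquitin ligases, 5 were higher and 4 lower in Model against Blank ears, beside 35.3% and 34.9% of all genes tested. There were 2 higher and 4 lower in IsoL against Model ears, beside 24.1% and 25.2%, and 4 higher and 3 lower in IsoL against Blank ears, beside 36.5% and 34.0%, where Cbl and Cblb made it 5 lower without scaling factors. Errfi1, whose protein binds and blocks the kinase domain, averaged 38.5 FPKM in the IsoL ears, 51.5 in the Model ears and 26.9 in the Blank ears, a log2 difference of 0.94 ± 0.05 in Model against Blank ears and -0.42 ± 0.05 in IsoL against Model ears (adjusted p 8.31e-14 and 1.43e-07, edgeR's quasi-likelihood test). Lrig3, of a family of membrane proteins that regulate ERBB receptors, fell by 1.10 ± 0.07 in Model against Blank ears. Its rise of 0.21 ± 0.07 in IsoL against Model ears (adjusted p 0.0168) did not pass without IsoL replicate 2 or 3 (adjusted p 0.0626 and 0.0557). Cblb, a ubiquitin ligase for the receptor, rose by 0.52 ± 0.05 in Model against Blank ears and fell by 0.63 ± 0.05 in IsoL against Model ears, and Cblc, of the same family, was 0.66 ± 0.12 higher in IsoL than in Model ears.

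Of 8 feedback inhibitors of ERK signalling, 5 were higher and 3 lower in Model against Blank ears, beside 35.3% and 34.9% of all genes tested, and the 5 include Spry4, which passed the filter through the Model and IsoL ears. There were 2 higher and 4 lower in IsoL against Model ears, beside 24.1% and 25.2%, and 4 higher and 3 lower in IsoL against Blank ears, beside 36.5% and 34.0%. Spry4 is among the higher genes of IsoL against Blank ears too. There it was not called in limma on log2(FPKM + 1) or log2(FPKM + 0.1), at adjusted p 0.0728 and 0.0686. Dusp5, an ERK phosphatase of the nucleus, had the order of Epgn and Areg, with 50.1 FPKM in the IsoL ears, 35.9 in the Model ears and 3.77 in the Blank ears. It rose by 3.25 ± 0.09 in Model against Blank ears and by 0.48 ± 0.07 in IsoL against Model ears on the log2 scale (adjusted p 1.12e-18 and 6.11e-06, edgeR's quasi-likelihood test). Dusp6, the ERK phosphatase of the cytoplasm, had the order of Hbegf, with 27.9, 41.3 and 8.60 FPKM in the IsoL, Model and Blank ears. It rose by 2.26 ± 0.06 in Model against Blank ears and fell by 0.57 ± 0.06 in IsoL against Model ears (adjusted p 9.28e-19 and 1.89e-08). Dusp4 rose by 1.98 ± 0.12 and fell by 0.98 ± 0.11 in these comparisons. Spry1, a Sprouty protein that damps receptor signalling to RAS, fell by 1.51 ± 0.09 in Model against Blank ears and was 0.46 ± 0.09 higher in IsoL than in Model ears.

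Of 20 adaptors and kinases between receptor and effectors, 8 were higher and 7 lower in Model than in Blank ears, beside 35.3% and 34.9% of all genes tested. There were 6 higher and 6 lower in IsoL than in Model ears, beside 24.1% and 25.2%, and in IsoL against Blank ears 10 and 6, beside 36.5% and 34.0%. The medians were 0.01, -0.02 and 0.11, against -0.01, 0.01 and 0.02 over all genes, and the shares in Model against Blank ears were near those of all genes. Map2k1, the kinase that activates ERK, rose by 1.03 ± 0.05 in Model against Blank ears (adjusted p 1.17e-14, edgeR's quasi-likelihood test). Grb2, the adaptor that links the receptor to RAS, rose by 0.93 ± 0.05, and Araf, a RAF kinase, fell by 0.67 ± 0.05. In IsoL against Model ears Braf, another RAF kinase, fell by 0.68 ± 0.05, and Hras was higher by 0.64 ± 0.06.

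Of 14 transcripts known to respond to ERK, 13 passed the filter. Against Blank ears, 10 were higher in the Model ears and 1, Ccnd1, lower, with a median of 1.72. In IsoL against Model ears 4 were higher and 8 lower, with a median of -0.71. In IsoL against Blank ears 12 were higher and 0 lower by edgeR's quasi-likelihood test, with a median of 1.21, with 0 lower at an unadjusted p under 0.05 and 0 in DESeq2, and with 1, Etv5, lower in limma, without scaling factors and with upper-quartile factors. The shares of all genes tested were 35.3% higher and 34.9% lower in Model against Blank, 24.1% and 25.2% in IsoL against Model, and 36.5% and 34.0% in IsoL against Blank ears. Plaur, the urokinase receptor of myeloid cells and keratinocytes, averaged 11.3 FPKM in the IsoL ears, 76.2 in the Model ears and 1.09 in the Blank ears. It rose by 6.13 ± 0.09 in Model against Blank ears and fell by 2.75 ± 0.07 in IsoL against Model ears (adjusted p 5.90e-23 and 1.83e-18 by edgeR). The immediate early genes Egr1 and Fos rose by 2.86 ± 0.06 and 3.15 ± 0.08 in Model against Blank ears and fell by 1.94 ± 0.06 and 1.68 ± 0.07 in IsoL against Model ears. Ier3 and Junb, immediate early genes as well, rose by 3.48 ± 0.06 and 3.18 ± 0.07 in Model against Blank ears. The 4 higher in IsoL than in Model ears were Egr3, Etv4, Ccnd1, which encodes cyclin D1, and Myc, by 0.93 ± 0.05, 0.86 ± 0.10, 0.83 ± 0.05 and 0.53 ± 0.07.

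**Figure D5:**
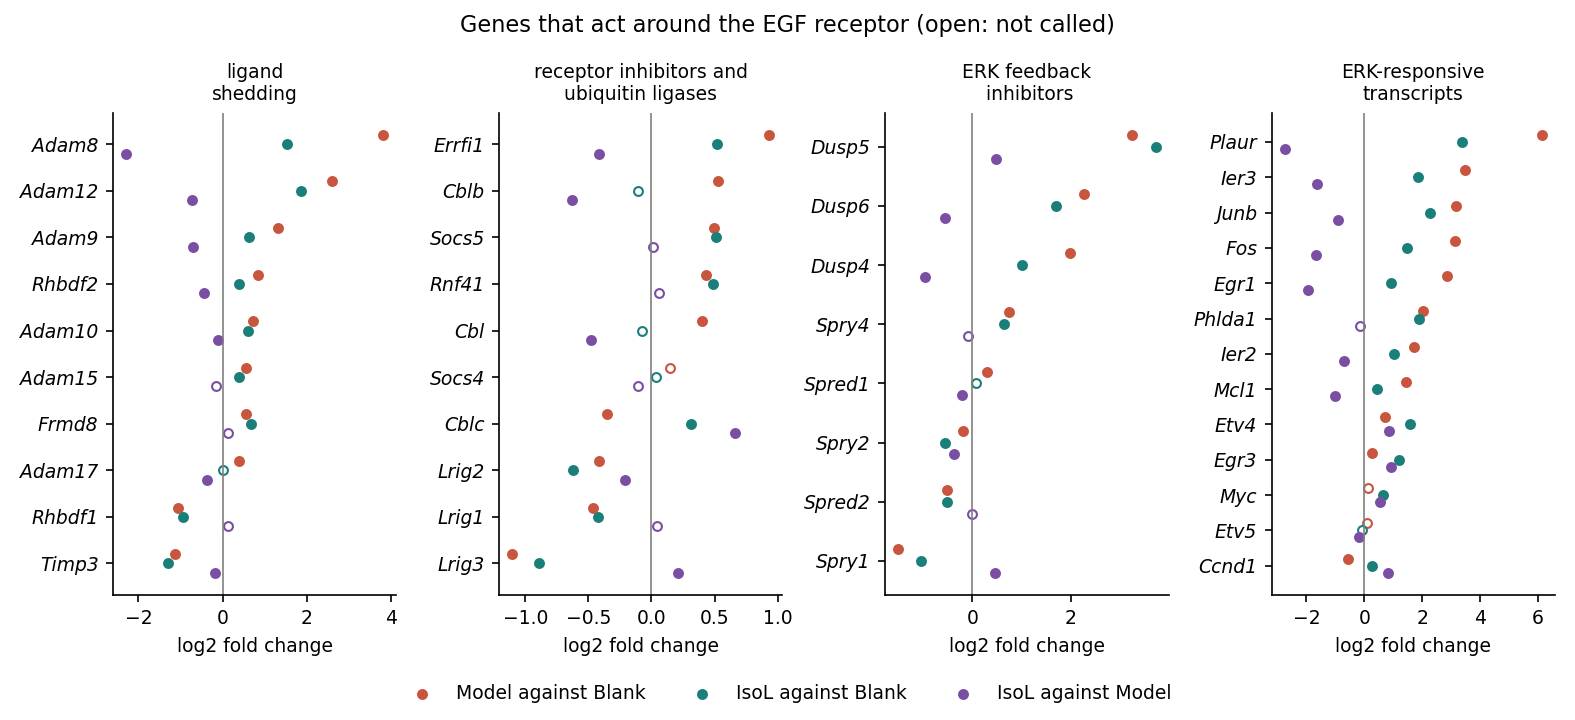
Log2 fold changes of the tested genes of 4 pathway lists in the 3 comparisons, 1 row per gene on an axis of its own for each list; filled points were called and open points were not. Plaur and Adam8 are highest in Model against Blank ears, at 6.13 and 3.81, and lowest in IsoL against Model ears, at -2.75 and -2.30.

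Marker genes of cell types moved as well. Their counts stand beside 35.3% of all genes tested called higher and 34.9% lower in Model against Blank ears. The shares were 24.1% and 25.2% in IsoL against Model ears, and 36.5% and 34.0% in IsoL against Blank ears. The tissue held keratinocyte, cartilage and skeletal muscle markers, with 5 muscle markers summing to 623 to 952 FPKM in the IsoL ears, 661 to 782 in the Model ears and 1264 to 1386 in the Blank ears. Of 5 cartilage markers, 4 passed the filter, all but Matn1. The summed level of 6 neutrophil markers was 540 to 753 FPKM in the IsoL ears, 4889 to 5344 in the Model ears and 52.6 to 129 in the Blank ears, where Ly6g was at 0. Most of these sums came from S100a9, with means of 416 FPKM in the IsoL ears and 3328 in the Model ears, and S100a8, with 213 and 1486. Ly6g, Csf3r and Retnlg had 0 Blank libraries at the filter's minimum, so that their being higher in Model than in Blank ears was fixed by the filter, and Ly6g had 0 IsoL libraries there too, so that its being lower in IsoL than in Model ears was fixed as well. The sum of 6 monocyte and macrophage markers was 658 to 777, 1307 to 1435 and 161 to 172 in the same groups. All 6 of each list were higher in Model than in Blank ears, among them those 3, and all 6 lower in IsoL than in Model ears. The 5 endothelium markers summed to 49.1 to 56.5 FPKM in the IsoL ears, 81.8 to 85.2 in the Model ears and 22.3 to 24.8 in the Blank ears, with all 5 higher in Model than in Blank ears and all 5 lower in IsoL than in Model ears. The 5 fibroblast markers summed to 688 to 778, 877 to 929 and 667 to 719 FPKM in the same groups, with 4 higher in Model than in Blank ears and 5 lower in IsoL than in Model ears. The sums of these 4 lists were highest in the Model ears, as Hbegf was. So were the sums of hair follicle, basophil and T cell markers, although not every fibroblast, hair follicle or T cell marker had that order. The fibroblast marker Col1a2 averaged 94.0 FPKM in the IsoL ears, 108 in the Model ears and 115 in the Blank ears. The 5 basal keratinocyte markers summed to 6068 to 7293 FPKM in the IsoL ears, 3053 to 3767 in the Model ears and 3438 to 3764 in the Blank ears, with all 5 higher in IsoL than in Model ears. In Model against Blank ears, and in IsoL against Blank ears as well, Krt14 was higher and the other 4 lower. Krt14 held the largest part of the sum, with 5480 FPKM on average in the IsoL ears and 1856 in the Blank ears. The 5 suprabasal markers summed to 4839 to 5732, 1827 to 2327 and 3729 to 3993 FPKM, with all 5 higher in IsoL than in Model ears. In Model against Blank ears Krt1, Flg and Dsc1 were higher and Krt10 and Ivl lower. Mean sums of cartilage, skeletal muscle, sebaceous gland, adipocyte and Schwann cell markers were highest in Blank and lowest in Model ears. Erbb2, Ereg and Btc had that order too. The IsoL and Model ranges of each of these sums overlapped, and not every marker had the order of its sum. The part of these cell types in the results was not tested, and in these bulk libraries fewer cells of a type and less RNA per cell cannot be told apart.

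The genes most like each of the 8 over the 12 libraries were found by the root mean square difference of their centred log2 levels, as a description. Epgn was nearest to Gjb6, at 0.122, with Klk13 and Sprr2h next, and Areg to Epgn, at 0.268, with Gjb6 and Stfa3 next. Hbegf was nearest to Rassf2, at 0.0943, followed by Cd48 and Galnt6. Ereg was nearest to Anxa8, at 0.0882, and Btc to Ly6m, at 0.137. Erbb2 was nearest to Osbpl5, at 0.0736, Egfr to Slu7, at 0.0321, and Tgfa to Psmd5, at 0.0652. A flat gene has many close neighbours, so that a small difference for Egfr or Tgfa marks their narrow range, and the measure was taken over 8875 genes, or 8876 for Btc, with a mean FPKM of 5 or more in some group. Gjb6, which encodes connexin 30, averaged 148 FPKM in the IsoL ears, 77.1 in the Model ears and 2.76 in the Blank ears, and Cd48, a surface protein of leukocytes, 17.3, 28.8 and 5.05.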

How the data were processed

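RNA of 12 ear libraries was analysed, 4 per group. Per the labels, mRNA was captured on poly-T beads and copied from random primers. fastp 0.22.0, HISAT2 2.1.0 and HTSeq 0.9.1 were used, per the submitters' processing notes, with the genome build not given in the sources used. The authors deposited raw read counts and FPKM, and 100% of the deposited FPKM values were recomputed within 0.0051 from counts, exonic length and library total. Genes at or above an FPKM of 1 in 4 or more libraries were tested with edgeR 4.0.16 in R 4.3.3 (TMM factors, quasi-likelihood test, 1 fit over 3 groups, two-sided, Benjamini-Hochberg adjustment, threshold 0.05), after a test on simulated data. The simulated data changed few genes and gave all groups the same spread, unlike these libraries. Levels are FPKM divided by the TMM factor. Alternatives were other scalings and filters, DESeq2 1.42.0, limma 3.58.1 on log2(FPKM + 1) and log2(FPKM + 0.1), a replicate block, a fit of 2 groups and leaving out each library. All 8 genes are named. Pathway genes were drawn mainly from the up to 3 called genes of largest change per list and comparison, and not all of those are named. Of the 3 most alike genes per member, only the nearest is named for Ereg, Btc, Erbb2, Egfr and Tgfa. The genes and lists were chosen with earlier results of these data known. Intervals cover the spread between libraries, and the library number limits the precision. The IsoL libraries differed more from each other than those of the other groups, and the fit over 3 groups shares the estimate of the spread. For IsoL against Model ears that fit called 7589 genes, and the fit of the 2 groups 6994.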

Additional observations from a re-analysis of the deposited data

Results flagged for a closer look

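Epgn in the IsoL ears had 1 library apart from the others. IsoL replicate 3 was at 66.5 FPKM, and the other 3 were at 78.4 to 79.3, and its gap to the nearest of them was 0.929 of the group's whole range, above Dixon's critical value at the 95% level. Of 24 groups of 4 libraries, 8 genes in 3 groups, chance flags about 1 in 20. Without that library the log2 difference of Epgn was 0.92 in IsoL against Model ears, still called.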

How the results depend on the processing

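Each gene was recomputed under 22 settings, 12 of them leaving out 1 library, which gave 432 values. Of these, 428 stayed on the same side of the threshold, and 0 reversed direction where either value was called. A change of direction without a call, as for Tgfa below, is among the 428. Egfr in IsoL against Model ears became called, at log2 -0.13 without scaling factors, -0.12 in limma on log2(FPKM + 1) and -0.13 in limma on log2(FPKM + 0.1), which makes 2 genes lower in place of 1 under those 3 settings. Areg in IsoL against Model ears was 0.56 and not called in limma on log2(FPKM + 0.1). These 3 settings use library totals alone, and moved the median of all genes by -0.14 in Model against Blank and -0.19 in IsoL against Blank ears without scaling factors, where Tgfa in Model against Blank ears, never called, was at -0.06. The share of higher among called genes was 50.3% in Model against Blank ears and 39.0% without scaling factors, 49.0% and 39.6% in IsoL against Model ears, and 51.8% and 36.1% in IsoL against Blank ears. Leaving out each library, Areg ran from 4.71 to 5.32 and Epgn from 5.0 to 5.21 in Model against Blank ears, Egfr from -0.11 to -0.04 and Btc from 0.48 to 0.76 in IsoL against Model ears. The replicate block called 10737 genes in Model against Blank ears, against 10805 without it, and changed no call of the 8 genes. Libraries with the same number did not deviate together (correlation -0.126 to 0.030), so that the numbers are taken as names. Some counts of the pathway lists moved by over 1.5 times. Other ERBB genes lower in Model against Blank ears were 2, and 4 without a filter on low values or with edgeR's own filter. Those called in IsoL against Model ears were 1 higher and 1 lower, with 2 higher under either of these settings and 2 lower without a filter. Receptor inhibitors lower in IsoL against Blank ears were 3, and ERK-responsive transcripts 0, against 5 and 1 without scaling factors, with upper-quartile factors and in limma. Receptor inhibitors higher in IsoL against Model ears were 2, and 1 without scaling factors, in limma and in the fit of 2 groups. The Blank values of Areg rest on 8 to 27 counts per library, which limits its fold change.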
